A study of Saccharomyces pastorianus with 12 samples.

Results

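The autophagy (ATG) and vacuolar protease genes of lager yeast were followed through a brewery propagation. They were chosen by name: every Saccharomyces cerevisiae probe set annotated ATG with a number, plus PEP4, PRB1, PRC1, LAP3 and APE1, with 1 probe set per gene. This gave 39 genes of the 5635 S. cerevisiae genes named on the array, of which 17 were numbered between ATG1 and ATG18, 17 carried higher ATG numbers and 5 were the proteases. ATG6 is annotated as VPS30 on this array and was therefore read with the Vps34 complexes. The numbering is historical: ATG29, ATG31 and ATG38, numbered above ATG18, encode subunits of the initiation and lipid kinase complexes.

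Saccharomyces pastorianus strain CB11, a hybrid lager yeast, was propagated in a 140 hl vessel inoculated from an aerobic 8 hl one. Its wort, from 80% malt with 20% maltose adjunct, stood at 17 degrees Plato and was held at 20 °C, with 0.5 mg/l zinc and dissolved oxygen kept at 7 to 8 mg/l. Triplicate samples, A, B and C, were drawn at 0h (just after inoculation), 4h, 8h and 30h, and each was hybridised to 1 single-colour Affymetrix array that carries S. cerevisiae and S. pombe probes. All samples shared the strain, vessel, wort and oxygen supply, and time was the one factor the labels vary. Nothing in the labels makes the samples of a time separate propagations; the p-values then reflect the spread between samples, which may be technical.

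Autophagy delivers cytoplasm to the vacuole for breakdown: the Atg1 kinase complex starts the process, lipid kinase and membrane-transfer proteins build a double membrane, and ubiquitin-like conjugation systems attach Atg8 to it. In yeast it is known chiefly as a response to starvation, held in check by TOR kinase while nutrients last. The vacuolar proteases digest what arrives. Proteinase A, made by PEP4, activates several of them, though not every protease of the set, and brewers know it as an enzyme that can degrade the proteins of beer foam. The cytoplasm-to-vacuole targeting (Cvt) pathway uses much of the same machinery to carry aminopeptidase I, the product of APE1, into the vacuole during growth.

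Signals below are on the normalised scale: deposited intensities made alike in distribution across the 12 arrays (quantile normalisation over 5503 tested genes). Levels are comparable between times for 1 gene, not between genes. Changes are log2 differences of normalised signals with standard errors from limma, with p-values adjusted over all 5503 genes by the Benjamini-Hochberg method, and a gene was called at an adjusted p under 0.05. RNA was drawn from whole cultures, so less RNA per cell and fewer cells carrying a transcript cannot be told apart, and the probes do not separate the parental gene copies of the hybrid. A signal counted as above background when it passed the 95th percentile of the S. pombe probe sets on the same array. By that measure 32 of the 39 genes were above background on all 12 arrays. ATG13, a regulatory subunit of the Atg1 kinase complex, was above it on 0 of 12, with deposited signals of 0.533 to 12, and was not tested.

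The arrays differed between the early times (0h and 4h) and the late times (8h and 30h). Spearman correlations over all tested genes were 0.205 to 0.402 between late and early arrays, against 0.892 to 0.942 among arrays of 1 late time. Arrays of 0h correlated at 0.729 to 0.974 with one another, and 0h A with the 4h arrays at 0.648 to 0.672. The spread of log2 signals before normalisation was 1.21 to 1.33 on late arrays and 1.91 to 2.03 on early arrays (SD over genes). Normalised signals of ACT1, the actin gene, were 377 to 709 on late arrays and 870 to 1787 on early arrays. Array 0h A stood apart within its group: the ratio of 3′ to 5′ control probe sets, a measure of RNA integrity, was 35.5 there and 6.96 on 0h C, against 1.30 to 2.02 on the other 10 arrays. The part of these differences in the results below was not tested.

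Of the 38 tested ATG and protease genes, 36 differed among the 4 times in limma's F test, where 78.4% of all tested genes did. The exceptions were ATG11, a scaffold of selective autophagy (adjusted p = 0.104), and ATG31, a subunit that links Atg17 and Atg29 (adjusted p = 0.154). All 5 proteases had their highest mean at 4h and fell at 8h. Among the 33 tested ATG genes, 14 were highest at 30h, 8 at 8h, 9 at 4h and 2 at 0h, and 19 were lowest at 0h, on normalised signals. The times of highest and lowest mean were not counted over all tested genes.

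**Figure D1:**
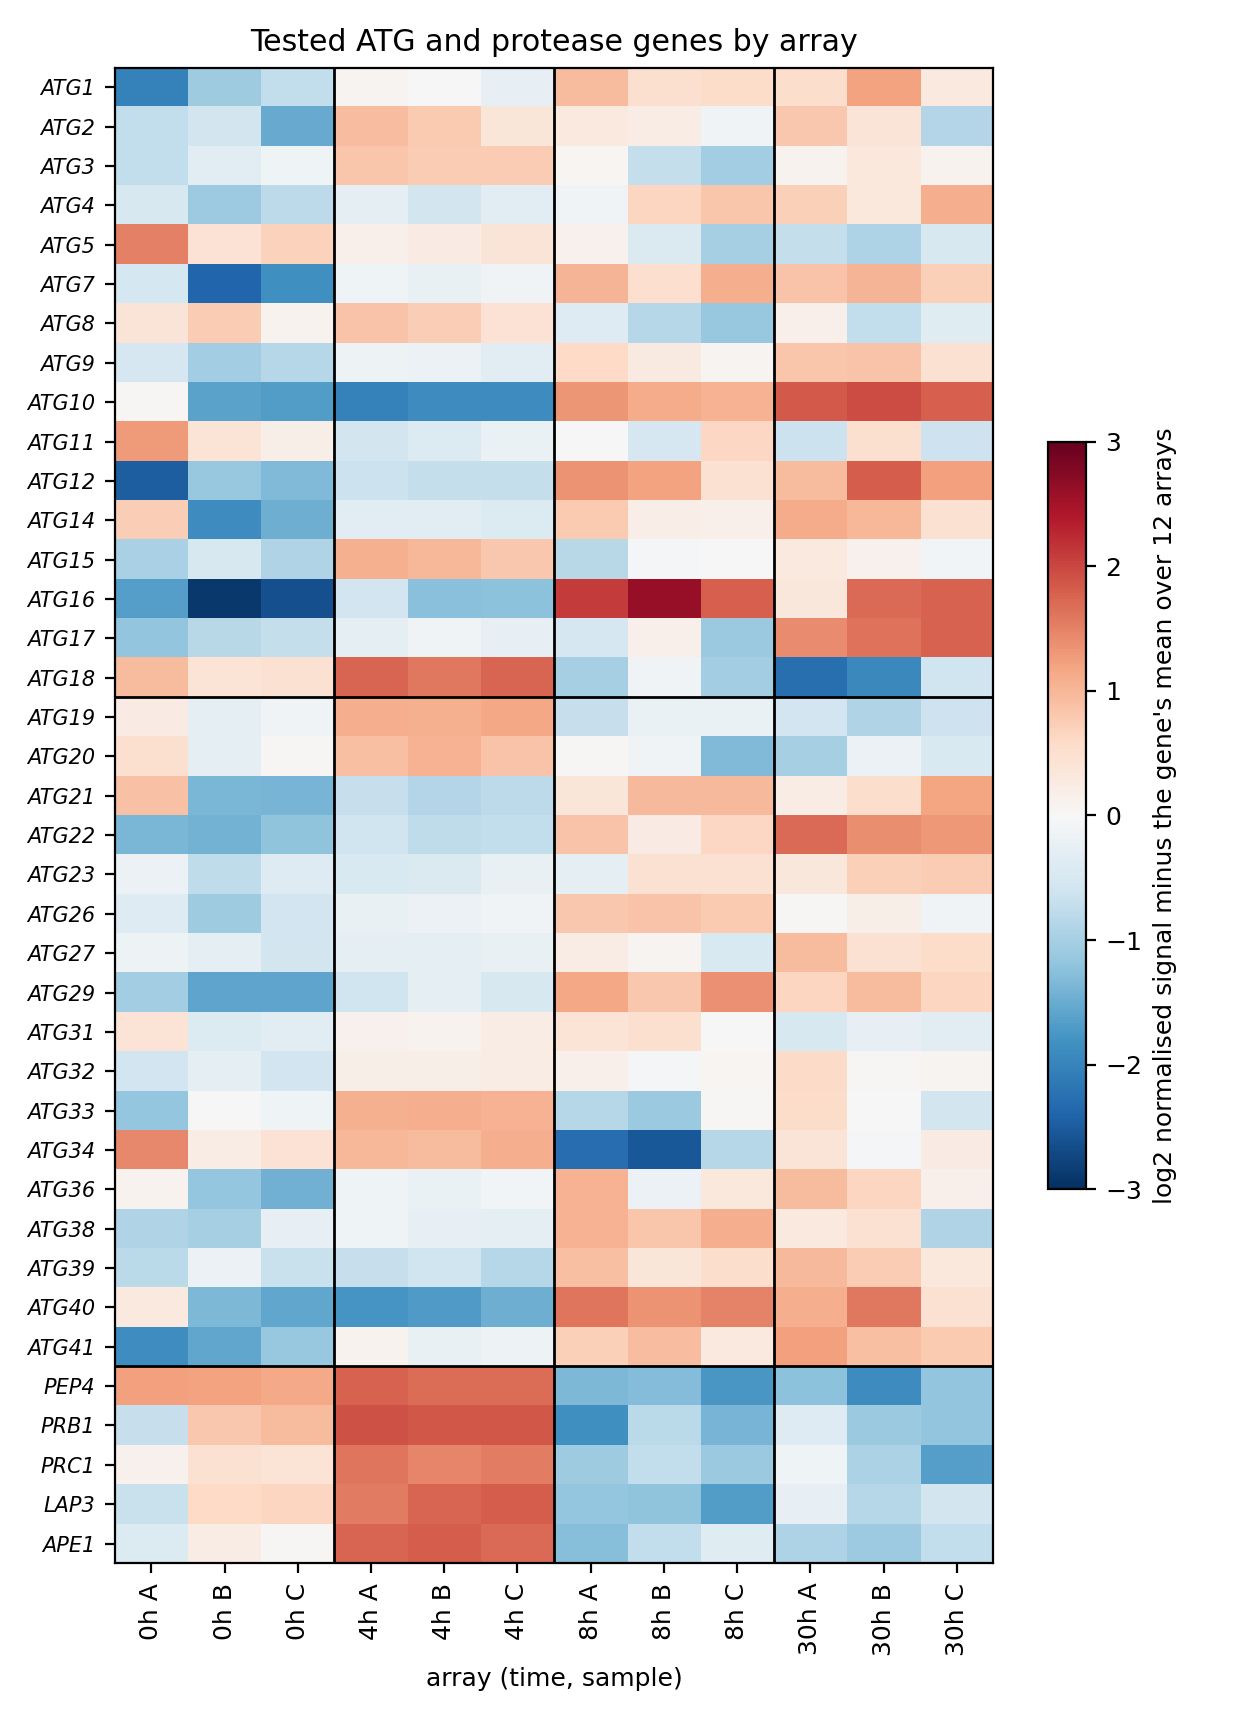
Heat map of the 38 tested genes (rows; lines separate ATG1 to ATG18, other ATG genes and the proteases) on the 12 arrays (columns, by time and sample). Colour is the log2 normalised signal minus the gene's own mean over the arrays; the proteases are red on all 4h arrays and blue on all 8h and 30h arrays.

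At 4h against 0h, 13 of the 38 genes rose and 0 fell by limma's adjusted test, where 11.8% of all tested genes rose and 11.8% fell. At an unadjusted p under 0.05, 22 rose and 2 fell, beside 1049 and 994 of all 5503 tested genes. The 13 risers by the adjusted test were 4 of 5 proteases, 5 of 16 tested genes of ATG1 to ATG18 (ATG1, ATG2, ATG3, ATG7, ATG15) and 4 of 17 other ATG genes (ATG19, ATG29, ATG33, ATG41). The median log2 change was 1.51 for the proteases, 0.82 for ATG1 to ATG18, 0.51 for the other ATG genes and 0.024 for all tested genes. All 3 samples at 4h lay above all 3 at 0h for 23 of the 38 genes and below them for 3, as they did for 27.7% and 25.1% of all genes. The count of 13 called higher by limma's adjusted test moved with the setting, as the share of all genes did. It was 19 without array 0h A, 7 without 4h A and 8 without 4h B, where 14.2%, 6.11% and 5.82% of all genes were called higher. Median centring gave 21 higher and 1 lower, array weights 28 higher and 1 lower, and no normalisation 0 higher and 6 lower, so that the direction turned there; 18.6%, 26.6% and 0.818% of all genes were then higher and 16.5%, 22.8% and 47.4% lower.

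At 8h against 4h, 13 of the 38 genes rose and 13 fell, 34.2% each way, where 30.7% of all tested genes rose and 33.9% fell, so the total in each direction lay near that of the whole array. All 5 proteases fell, while ATG1 to ATG18 split into 5 higher and 4 lower and the other ATG genes into 8 higher and 4 lower. Medians were -3.05 for the proteases, 0.48 for ATG1 to ATG18, 0.58 for the other ATG genes and -0.12 for all tested genes. The 4h signal is the base of this change, so the brightness of a gene at 4h enters it. The part of this in the calls was not tested. Of the 1376 genes brightest at 4h, 66.2% fell and 7.41% rose; they included 7 of the 38 genes, all 5 proteases among them, and all 7 fell. Of the 1376 genes dimmest at 4h, 6.40% fell and 59.1% rose, and of the 7 autophagy genes among them 4 rose and the other 3 were not called.

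From 8h to 30h few genes were called. At 30h against 8h, 3 of the 38 genes rose (ATG17, ATG22 and ATG34) and 0 fell by limma's adjusted test, where 0.909% of all tested genes rose and 2.73% fell. At an unadjusted p under 0.05 in limma's test, 6 rose and 3 fell, beside 482 and 496 of all 5503 tested genes. Over the whole period, at 30h against 0h, 22 rose and 8 fell, where 31.2% of all tested genes rose and 33.3% fell. The 22 risers were 11 of 16 of ATG1 to ATG18 and 11 of 17 other ATG genes, and the 8 that fell were 4 of the 5 proteases together with ATG5, ATG8, ATG18 and ATG19. The median log2 change over the whole period was -1.24 for the proteases, 1.497 for ATG1 to ATG18, 0.98 for the other ATG genes and -0.11 for all tested genes. Deposited signals taken without normalisation gave 3 higher and 15 lower at 30h against 0h, where 6.43% of all genes were higher and 66.1% lower. The median of all genes then shifted by -1.86, that of the 33 ATG genes by -0.25 and that of the proteases by -2.93. The 30h against 8h count was 6 higher and 1 lower without array 0h A, which bears on that comparison through the normalisation and the shared estimate of spread, and 1 higher without 8h B.

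**Figure D2:**
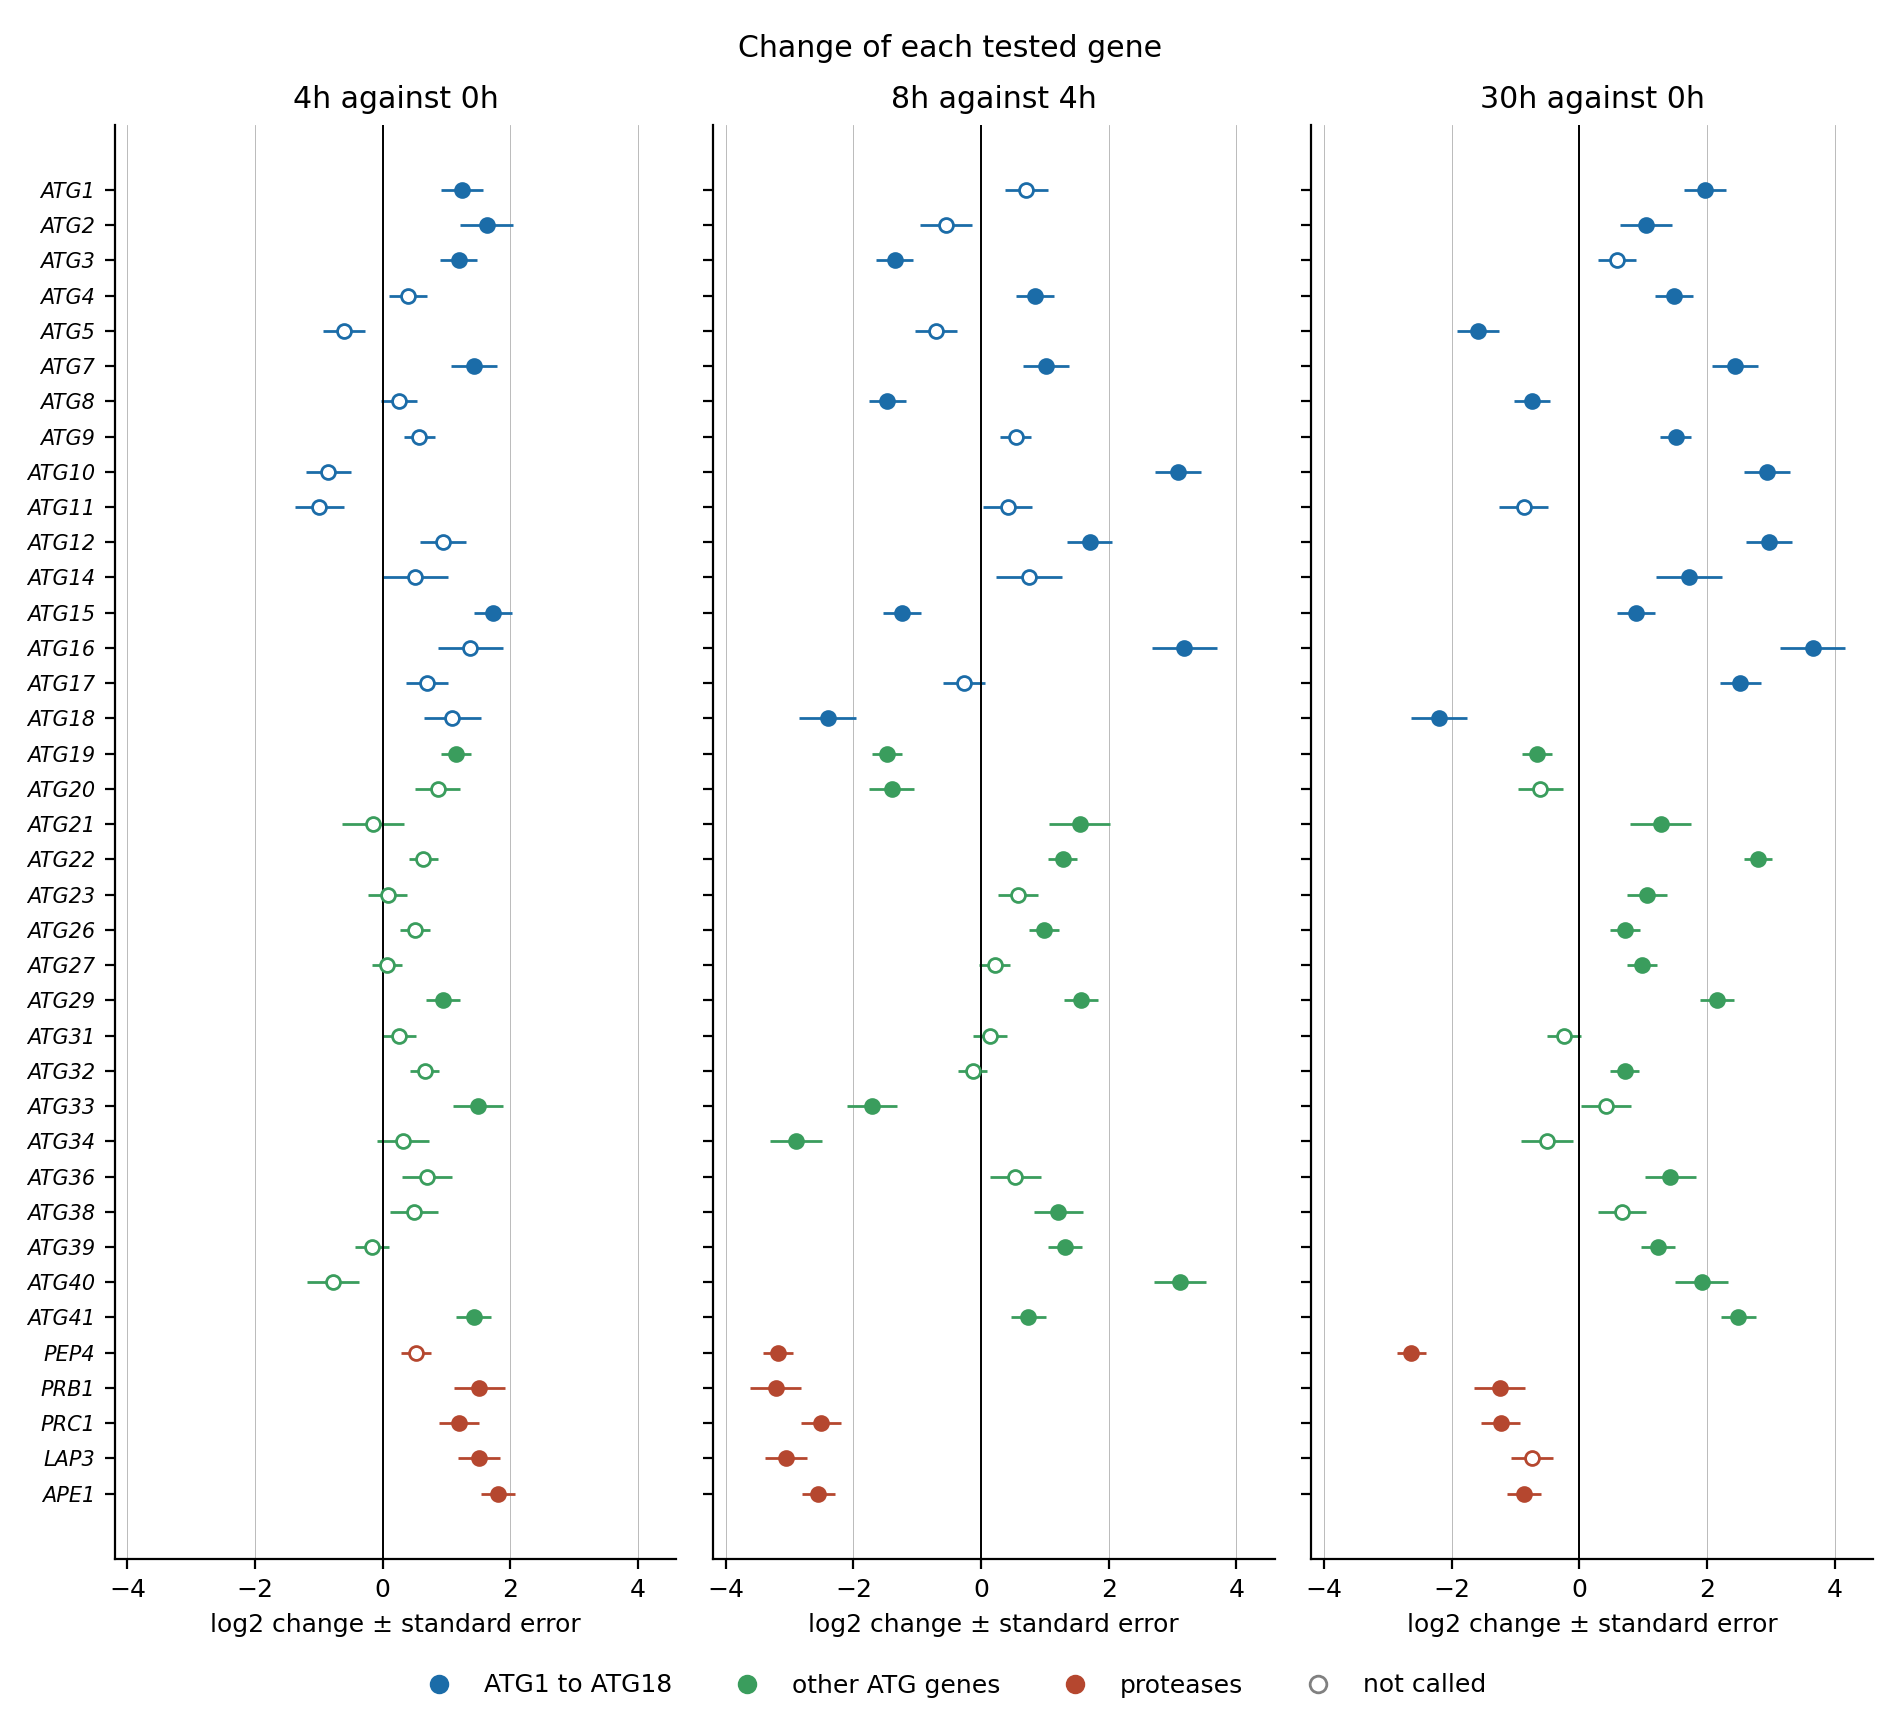
Log2 change of each tested gene with its standard error (points and bars, 3 arrays a time) for 4h over 0h, 8h over 4h and 30h over 0h. Filled points were called; the proteases sit right of 0 at 4h, between -3.22 and -2.504 at 8h against 4h, and left of 0 at 30h against 0h.

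All 5 proteases fell at 8h against 4h. PEP4, encoding proteinase A, gave normalised signals of 513, 508 and 482 (0h), 750.3, 698 and 698 (4h), 85.9, 88.9 and 64.8 (8h) and 92.6, 59.3 and 96 (30h). Signals at 8h and 30h overlapped one another and lay far below every earlier sample. PEP4 fell by 3.18 ± 0.23 on the log2 scale at 8h against 4h, 9.04-fold (adjusted p = 1.47e-07), and fell by 2.63 ± 0.23 at 30h against 0h (adjusted p = 5.02e-07). Its 4h samples were all above its 0h samples, but the change of 0.51 ± 0.23 was not called (adjusted p = 0.127).

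PRB1 encodes proteinase B, a subtilisin-like serine protease of the vacuole, and its signals were 56.6, 160.0 and 177 (0h), 339.8, 332 and 329 (4h), 25.4, 51.9 and 34.9 (8h) and 70.1, 42.4 and 40.1 (30h). Sample A was the lowest of the 0h samples by a wide margin. PRB1 rose by 1.51 ± 0.40 at 4h against 0h (adjusted p = 0.0158) and then fell by 3.22 ± 0.40 at 8h against 4h (adjusted p = 1.13e-05). The rise was 0.97 on the log2 scale without array 0h A, and its call ended when any of the 4h arrays was left out (largest adjusted p = 0.0550). PRB1 at 30h against 0h fell by 1.25 ± 0.40 (adjusted p = 0.0142) although sample 30h A lay above sample 0h A, and that call did not hold without 0h B or C or without 30h B or C (adjusted p up to 0.0703).

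Carboxypeptidase Y, the classic marker of sorting to the vacuole, is encoded by PRC1, which had signals of 274, 346 and 330.3 (0h), 762, 686 and 727 (4h), 119.6, 149.6 and 116 (8h) and 230.2, 130.4 and 79.9 (30h). No 4h sample overlapped those of any other time. PRC1 rose by 1.20 ± 0.31 at 4h against 0h (adjusted p = 0.0138), a call that ended without 4h A (adjusted p = 0.0554), and it fell by 2.504 ± 0.31 at 8h against 4h (adjusted p = 1.06e-05). Over the whole period, 30h against 0h, it fell by 1.24 ± 0.31 (adjusted p = 0.00319), with samples at 30h spread more widely than at 8h.

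APE1, the aminopeptidase carried by the Cvt pathway, had signals of 153, 238 and 207 (0h), 681, 716 and 659 (4h), 83, 122 and 158 (8h) and 106, 95.3 and 122 (30h). It showed the largest 4h rise of the 38 genes, 1.81 ± 0.26 at 4h against 0h or 3.5-fold (adjusted p = 3.19e-04). It then fell by 2.55 ± 0.26 at 8h against 4h (adjusted p = 2.14e-06), and at 30h against 0h it fell by 0.87 ± 0.26 with no overlap (adjusted p = 0.00992).

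LAP3, a cysteine aminopeptidase also known as the yeast bleomycin hydrolase, had signals of 61.2, 148 and 151 (0h), 287, 327 and 339 (4h), 43.6, 41.8 and 30.6 (8h) and 81.6, 53.3 and 66.3 (30h). As with PRB1, sample 0h A was well below 0h B and 0h C. LAP3 rose by 1.51 ± 0.33 at 4h against 0h (adjusted p = 0.00523) and fell by 3.05 ± 0.33 at 8h against 4h (adjusted p = 3.15e-06). It was the 1 protease not called at 30h against 0h (log2 change -0.75 ± 0.33, adjusted p = 0.0603). The 8h against 4h fall of all 5 proteases was called under each of the 25 alternative settings run. These include deposited signals without normalisation, where 51.6% of all genes were called lower. The median log2 change there was -1.28 for all genes and -4.55 for the proteases.

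**Figure D3:**
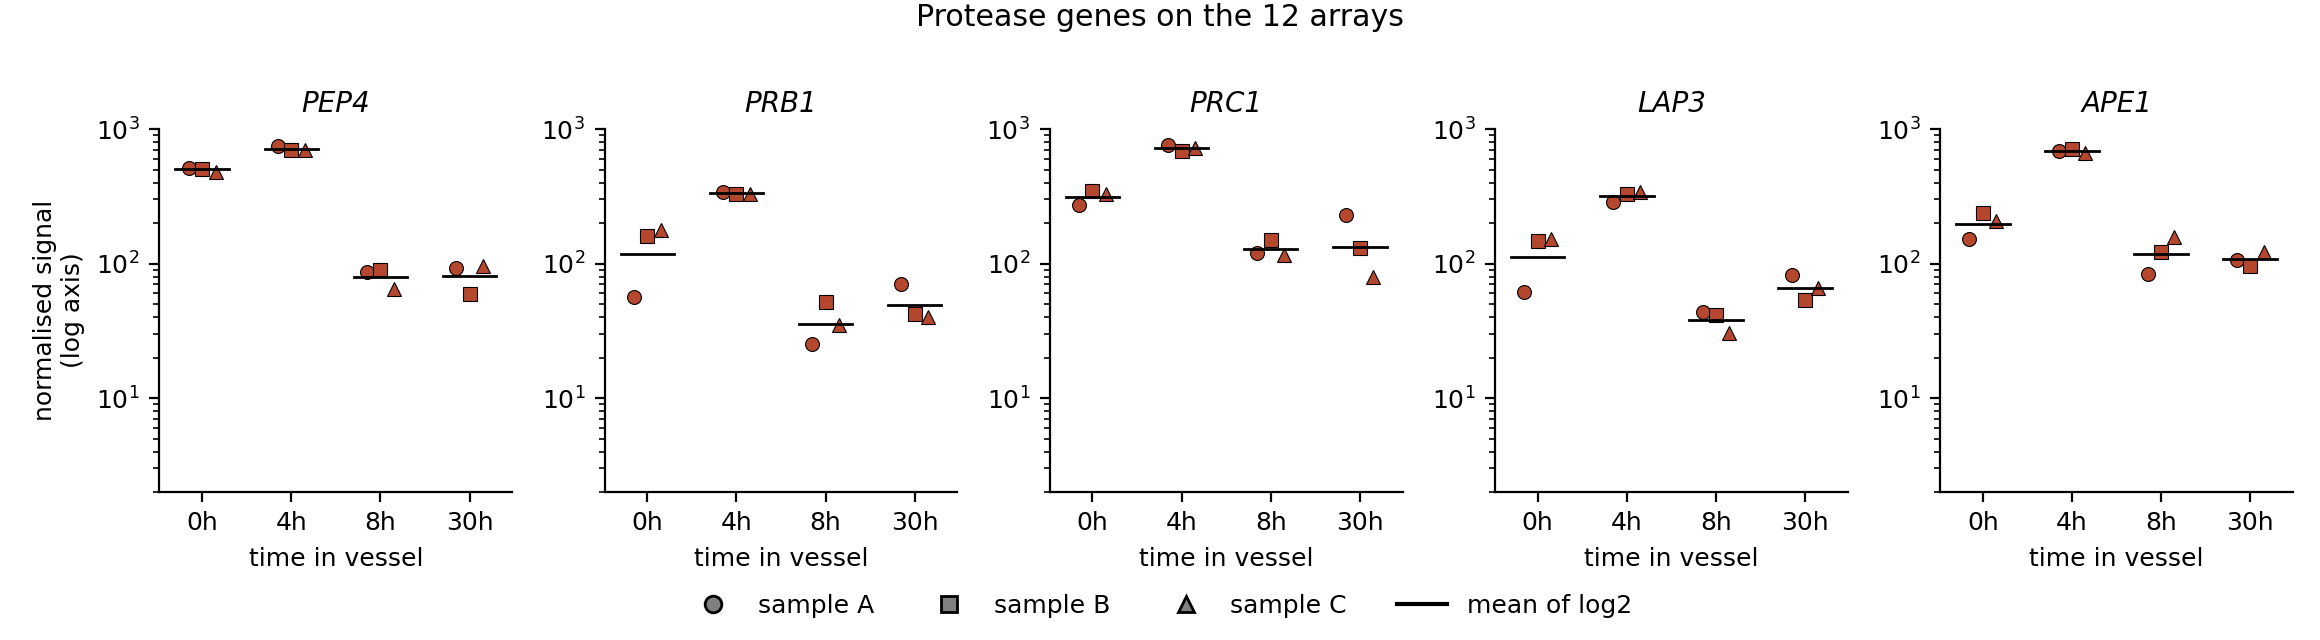
Normalised signal (log axis) of the 5 protease genes by time, 1 point per array (circle A, square B, triangle C) with the mean of log2 signals as a bar. Each gene peaks at 4h, and every 8h and 30h sample lies below every 4h sample; for PEP4 the 4h samples are 698 to 750.3 and the 8h samples 64.8 to 88.9.

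Of the 5 tested genes placed with the Atg1 kinase complex, which starts autophagy, ATG1, ATG17 and ATG29 rose at 30h against 0h and ATG11 and ATG31 were not called. ATG1, the kinase itself, had signals of 28.8, 56 and 70.3 (0h), 125, 119 and 100.2 (4h), 227, 165 and 174 (8h) and 171, 271 and 146 (30h). Each 4h sample exceeded each 0h sample, and the late samples were higher again. ATG1 rose by 1.24 ± 0.33 at 4h against 0h (adjusted p = 0.0159) and by 1.97 ± 0.33 at 30h against 0h, 3.91-fold (adjusted p = 1.42e-04), while the step at 8h against 4h was 0.71 ± 0.33 and not called (adjusted p = 0.0728). The 4h call ended without 4h A or 4h B (largest adjusted p = 0.0634).

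ATG17, the scaffold subunit that gathers the complex in starved cells, had signals of 15.8, 20.2 and 22.1 (0h), 29.6, 33.3 and 30.4 (4h), 25.5, 40.1 and 16.7 (8h) and 97.1, 112 and 123 (30h). It stayed low through 8h, with 0h and 8h samples above background on 2 of 3 arrays each, and all 30h samples stood apart. ATG17 rose by 2.10 ± 0.33 at 30h against 8h, 4.28-fold (adjusted p = 0.00195), and by 2.52 ± 0.33 at 30h against 0h (adjusted p = 1.53e-05). Its rise at 30h against 8h was the 1 call of that comparison that held when any single array was left out.

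ATG29, the partner of Atg17 and Atg31, ranged over 14.9 to 21.5 (0h), 29.2 to 36.4 (4h), 78.4 to 114 (8h) and 69.8 to 85.8 (30h). It was among the few genes called in both early steps, with rises of 0.95 ± 0.27 at 4h against 0h (adjusted p = 0.022) and 1.57 ± 0.27 at 8h against 4h (adjusted p = 1.77e-04), and it was 2.15 ± 0.27 higher at 30h against 0h (adjusted p = 1.08e-05). The first of these calls ended on leaving out 0h B, 0h C or any 4h array (largest adjusted p = 0.104). ATG31 ranged over 43.9 to 77.7 (0h), 62.8 to 67.8 (4h), 57.7 to 81.7 (8h) and 42.1 to 49.2 (30h) and none of its comparisons was called. ATG11, the scaffold used in selective autophagy in place of Atg17, ranged over 71.1 to 152 (0h), 43.3 to 55.3 (4h), 45 to 97.8 (8h) and 40.4 to 87.8 (30h), with a log2 change of -0.99 ± 0.38 at 4h against 0h (adjusted p = 0.0752) and -0.88 ± 0.38 at 30h against 0h (adjusted p = 0.0591), neither called.

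**Figure D4:**
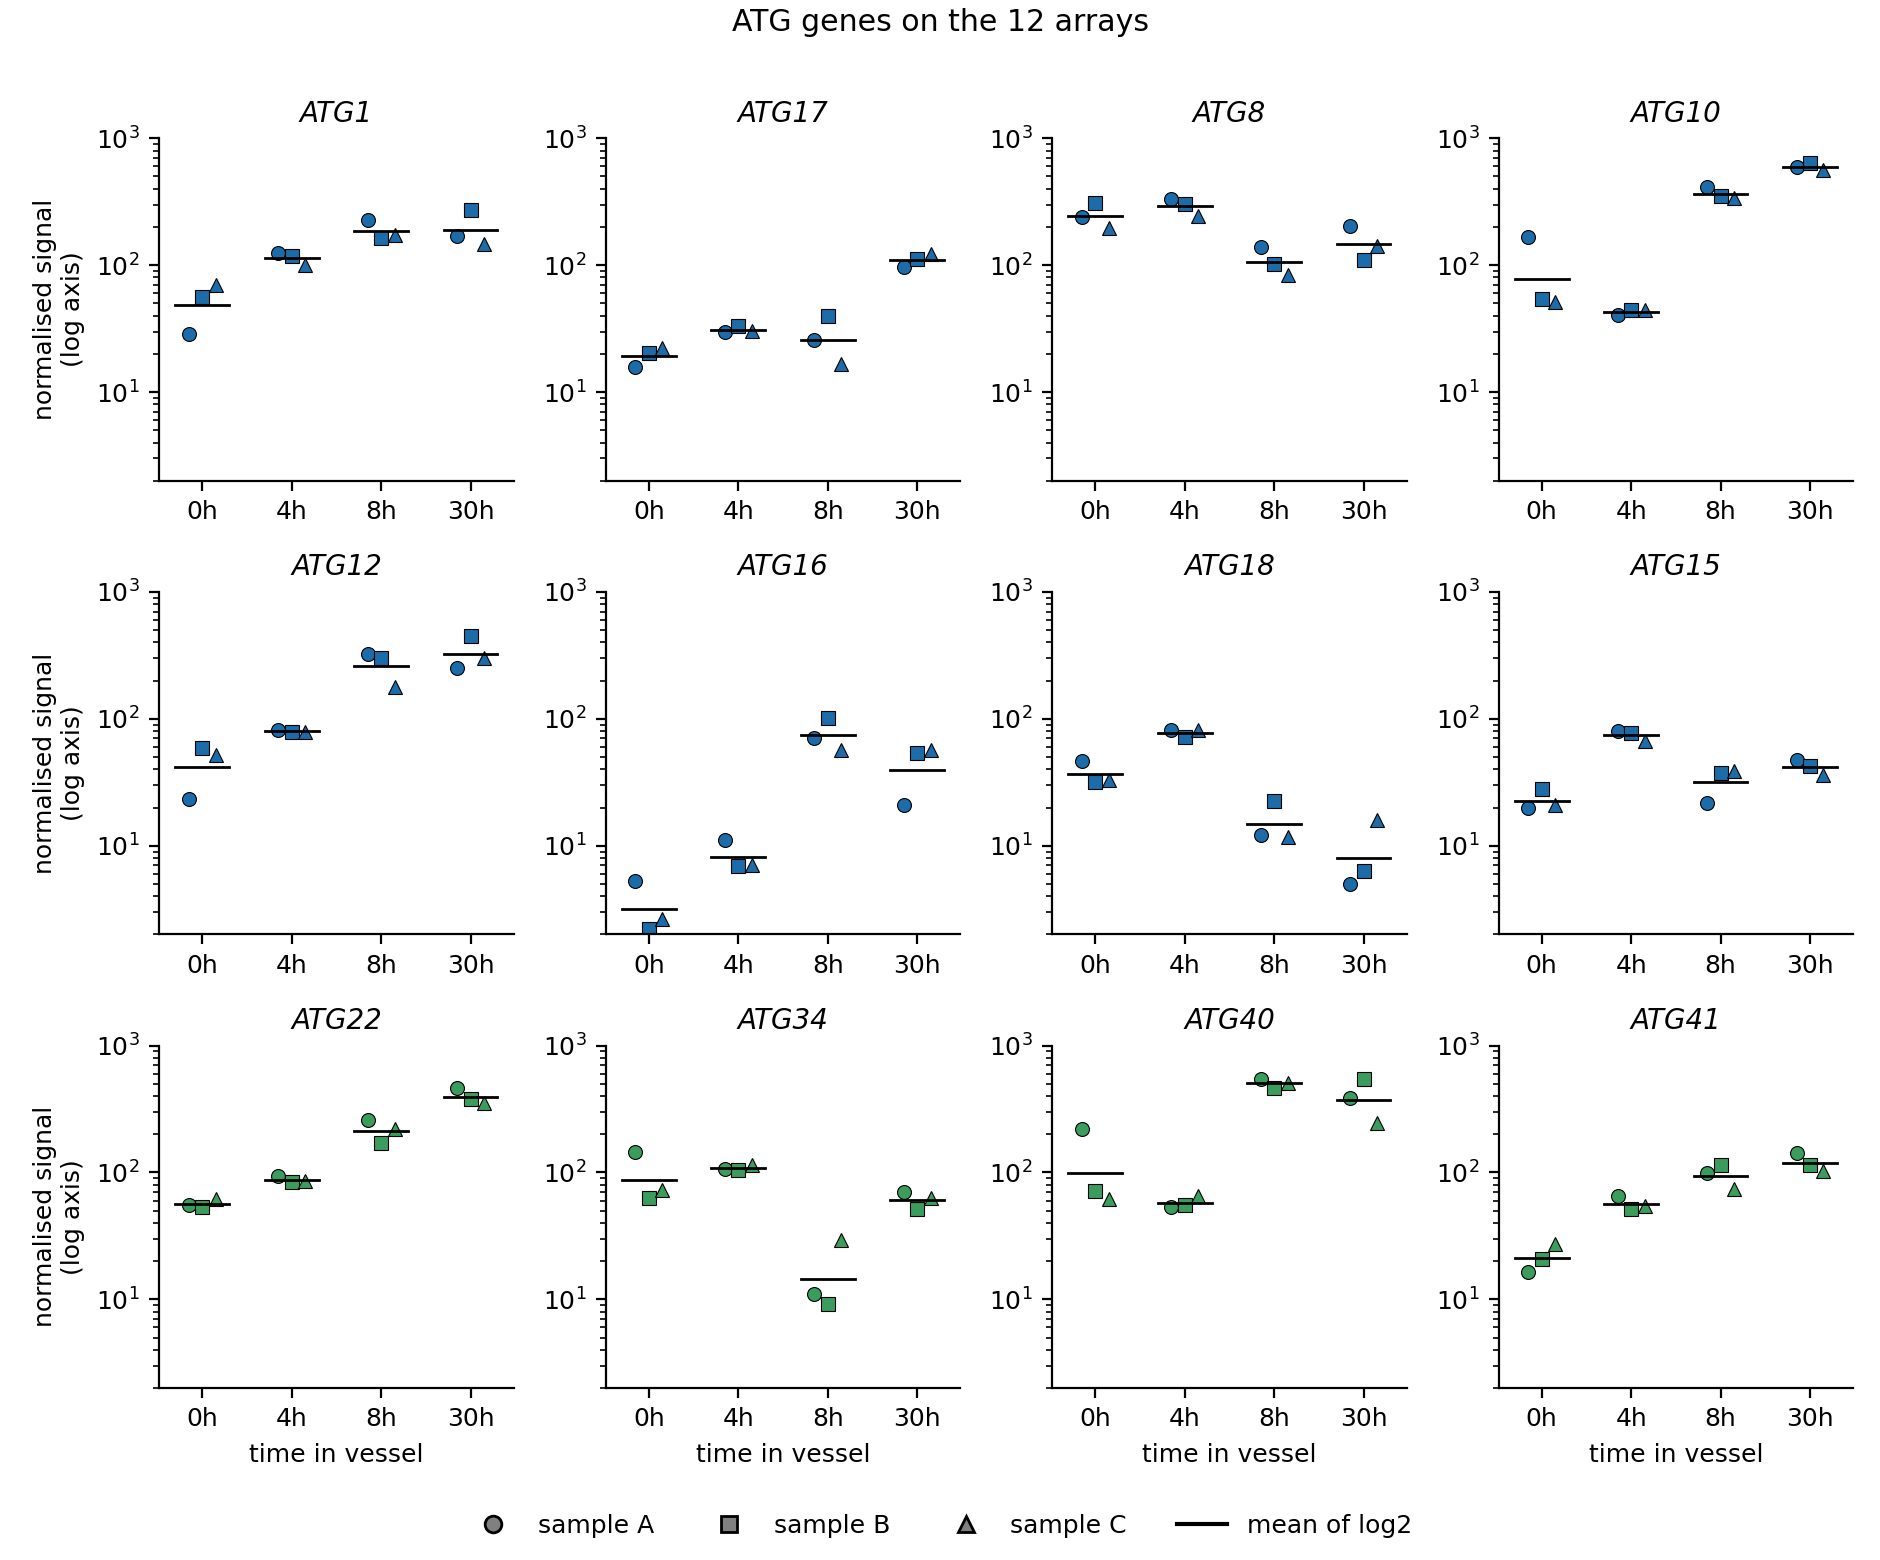
Normalised signal (log axis) of 12 ATG genes by time, 1 point per array with the mean of log2 signals as a bar (blue, ATG1 to ATG18; green, other ATG genes). ATG10, ATG16 and ATG40 jump at 8h, ATG18 and ATG34 drop at 8h, and ATG17 rises at 30h, to between 97.1 and 123.

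Atg9 is the membrane protein whose vesicles seed the growing membrane. ATG9 had signals of 36.6 to 53 (0h), 59.3 to 67.2 (4h), 80.3 to 113 (8h) and 104 to 135 (30h), each step small and uncalled, and together they gave a rise of 1.51 ± 0.24 at 30h against 0h (adjusted p = 9.46e-05). ATG23 and ATG27, which help Atg9 reach its assembly site, were called in the same comparison. ATG23 rose by 1.05 ± 0.31 at 30h against 0h (adjusted p = 0.00878) and ATG27 by 0.98 ± 0.24 (adjusted p = 0.00273), and neither was called in the single steps. The ATG27 call ended when arrays were centred on their medians in place of quantile normalisation.

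Atg2 and Atg18 work together at the edge of the growing membrane, Atg2 as a lipid-transfer protein and Atg18 as the phosphoinositide-binding partner that recruits it. Their transcripts went opposite ways over the period. ATG2 had signals of 22.8, 25.7 and 13.2 (0h), 71.3, 65.6 and 48.5 (4h), 46.5, 43.8 and 35.3 (8h) and 66.7, 49.3 and 20.6 (30h), and it rose by 1.63 ± 0.41 at 4h against 0h (adjusted p = 0.0122); that call ended without 4h A or 4h B (largest adjusted p = 0.0574). Over the whole period ATG2 rose, at 30h against 0h, by 1.05 ± 0.41 (adjusted p = 0.0379) with overlapping samples. This call was lost on leaving out 0h C, 4h A, 4h B, 30h A or 30h B (largest adjusted p = 0.171), and the change was 1.57 without 30h C.

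ATG18 had signals of 46.5, 32 and 32.9 (0h), 81.1, 71.9 and 81.3 (4h), 12.1, 22.5 and 11.7 (8h) and 5.02, 6.31 and 15.9 (30h). The 4h samples were the highest, and at 8h and at 30h only 1 of 3 arrays was above background. ATG18 fell by 2.40 ± 0.44 at 8h against 4h (adjusted p = 3.08e-04), and fell by 2.20 ± 0.44 at 30h against 0h (adjusted p = 6.08e-04), both against late levels that lay partly under background. ATG21, a paralog of ATG18 that acts in the Cvt pathway, ranged over 87.1 to 420.3 (0h), 125 to 141 (4h), 293 to 447 (8h) and 268 to 518 (30h) and was higher late. ATG21 rose by 1.54 ± 0.48 at 8h against 4h (adjusted p = 0.0121), a call that ended with median centring. Its rise of 1.27 ± 0.48 at 30h against 0h (adjusted p = 0.032) became 1.98 without array 0h A, and that call did not hold without 0h B or C or without 30h B or C (adjusted p up to 0.143) and under both forms of median centring.

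The lipid kinase complex that marks the membrane holds Vps34, Vps15, Vps30, Atg14 and Atg38. ATG14, the subunit that directs the complex to autophagy, had signals of 78, 12.7 and 17 (0h), 36.9, 37.3 and 35.2 (4h), 81.3, 53.8 and 52.4 (8h) and 101, 93 and 63.9 (30h). Sample 0h A was far above the other 0h samples and within the range of later ones. ATG14 rose by 1.72 ± 0.51 at 30h against 0h (adjusted p = 0.00928), with overlap through 0h A, and no step was called. ATG38 ranged over 14 to 23.8 (0h), 23 to 25.6 (4h), 50.02 to 59.7 (8h) and 15.1 to 38.8 (30h), and it rose by 1.21 ± 0.38 at 8h against 4h (adjusted p = 0.0126) but was not called at 30h against 0h (0.67 ± 0.38, adjusted p = 0.138). At 0h, ATG14 and ATG38 were each above background on 2 of 3 arrays. Among the genes of this complex outside the ATG set, VPS15, the regulatory kinase, rose by 3.04 ± 0.35 at 8h against 4h (adjusted p = 5.07e-06) and by 3.13 ± 0.35 at 30h against 0h (adjusted p = 3.68e-06). VPS34, the catalytic subunit, rose by 1.28 ± 0.29 at 4h against 0h only (adjusted p = 0.00618), and VPS30 changed by -0.46 ± 0.35 at 30h against 0h (adjusted p = 0.261) and was called in no comparison.

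The conjugation systems, in which Atg8 and Atg12 are activated and joined to their targets much as ubiquitin is, did not move as a block. ATG8, the membrane tag itself, had signals of 240.2, 311 and 197 (0h), 333, 306 and 245 (4h), 139, 102 and 83.4 (8h) and 203, 109 and 141 (30h). The 0h and 4h samples overlapped and all 8h samples lay below them. ATG8 fell by 1.47 ± 0.29 at 8h against 4h, 2.77-fold (adjusted p = 5.10e-04). At 30h against 0h it fell by 0.74 ± 0.29 (adjusted p = 0.0353), with sample 30h A above sample 0h C, and that call ended without 0h B, 4h B, 30h B or 30h C (largest adjusted p = 0.152).

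ATG4, the cysteine protease that trims Atg8 and releases it, ranged over 39.9 to 61.1 (0h), 57.4 to 69.6 (4h), 79.1 to 150.0 (8h) and 105 to 179 (30h). It rose by 0.84 ± 0.30 at 8h against 4h (adjusted p = 0.0224), a call that ended without 4h B, 8h B or 8h C (largest adjusted p = 0.0910), and by 1.48 ± 0.30 at 30h against 0h (adjusted p = 5.72e-04). ATG7, the activating enzyme shared by both systems, had signals of 124, 34.7 and 50.2 (0h), 164, 155 and 167 (4h), 361, 254 and 383 (8h) and 323, 365 and 293 (30h). It was higher at each of the first 3 times than at the one before, with 0h A again the outlying sample. ATG7 rose by 1.43 ± 0.36 at 4h against 0h (adjusted p = 0.0127), by 1.02 ± 0.36 at 8h against 4h (adjusted p = 0.0245) and by 2.44 ± 0.36 at 30h against 0h, 5.43-fold (adjusted p = 5.24e-05). The first call ended when only the arrays of 0h and 4h were fitted, and the second ended without any 4h array, without 8h A or 8h C (largest adjusted p = 0.0781) and with median centring.

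ATG3, the conjugating enzyme for Atg8, was highest at 4h, as the proteases were, but did not end below 0h. Its signals were 34, 45.6 and 52.1 (0h), 101, 97.4 and 96.9 (4h), 59.2, 34.7 and 27.8 (8h) and 61.9, 71.5 and 61.9 (30h). The 4h samples were the highest, and the 8h samples overlapped those of 0h. ATG3 rose by 1.19 ± 0.29 at 4h against 0h (adjusted p = 0.0108), a call that ended when 0h A and 0h C were both left out. It fell by 1.36 ± 0.29 at 8h against 4h (adjusted p = 0.00107) and was not called at 30h against 0h (0.59 ± 0.29, adjusted p = 0.0927).

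Genes of the Atg12 system gave some of the largest rises. ATG10, the conjugating enzyme for Atg12, had signals of 168, 54.4 and 51.3 (0h), 40.2, 44.4 and 44.7 (4h), 409, 353 and 337 (8h) and 591, 639 and 566 (30h). Its late samples all exceeded its early ones, of which 0h A was the highest. ATG10 rose by 3.08 ± 0.36 at 8h against 4h, 8.48-fold (adjusted p = 5.80e-06), and by 2.94 ± 0.36 at 30h against 0h (adjusted p = 8.44e-06). ATG12, the ubiquitin-like protein, had signals of 23.3, 58.8 and 51.8 (0h), 82.2, 78.4 and 78.8 (4h), 327, 299.9 and 178 (8h) and 251, 452 and 301 (30h). Late samples lay above every early one, and 8h and 30h overlapped. ATG12 rose by 1.70 ± 0.36 at 8h against 4h (adjusted p = 8.56e-04) and by 2.97 ± 0.36 at 30h against 0h, 7.84-fold (adjusted p = 7.35e-06).

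ATG16, which dimerises the Atg12-Atg5 conjugate, had signals of 5.28, 2.22 and 2.65 (0h), 11.1, 6.94 and 7.04 (4h), 70.5, 101 and 57 (8h) and 20.8, 53.4 and 56.4 (30h). It was above background on 0 of 3 arrays at 0h, on 1 of 3 at 4h and on all late arrays. ATG16 rose by 3.18 ± 0.51 at 8h against a 4h level that lay partly under background (adjusted p = 9.68e-05), and at 30h it was at least 3.19-fold higher than at 0h, where its level is only bounded by background (adjusted p = 2.82e-05). ATG5, the target that Atg12 is joined to, went the other way, with signals of 188, 89.98 and 106 (0h), 73.9, 78.7 and 87 (4h), 72.1, 49.3 and 33.2 (8h) and 40.6, 35 and 47.2 (30h). Samples at 0h were above all others and those at 8h and 30h overlapped. ATG5 fell by 1.58 ± 0.33 at 30h against 0h, 3-fold (adjusted p = 7.75e-04), through steps of -0.61 ± 0.33 at 4h against 0h and -0.70 ± 0.33 at 8h against 4h that were not called.

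At the far end of the pathway, Atg15 is the lipase that breaks up the vesicles inside the vacuole and Atg22 is a vacuolar membrane protein that exports amino acids released there. ATG15 had signals of 19.8, 27.9 and 20.8 (0h), 80.5, 77.4 and 67.2 (4h), 21.7, 37.3 and 38.9 (8h) and 47, 42.3 and 36.2 (30h). The 4h samples stood above all others. ATG15 rose by 1.73 ± 0.30 at 4h against 0h, 3.32-fold (adjusted p = 0.00116), then fell by 1.24 ± 0.30 at 8h against 4h (adjusted p = 0.00241). At 30h against 0h it was 0.88 ± 0.30 higher (adjusted p = 0.0186), a call that ended without 0h C or 30h A (largest adjusted p = 0.0587).

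ATG22 climbed at each time, with signals of 55.3, 53.6 and 61.6 (0h), 94.2, 84.4 and 85.5 (4h), 261, 169.7 and 219.6 (8h) and 465, 378 and 351 (30h). No 2 neighbouring times overlapped, but the change of 0.63 ± 0.23 at 4h against 0h was not called (adjusted p = 0.0569). ATG22 rose by 1.28 ± 0.23 at 8h against 4h (adjusted p = 2.19e-04) and by 2.80 ± 0.23 at 30h against 0h, 6.96-fold (adjusted p = 2.22e-07). Its rise of 0.89 ± 0.23 at 30h against 8h was near the threshold (adjusted p = 0.0452), and it was lost in 16 of 25 alternative settings, 10 of them the loss of 1 array (largest adjusted p = 0.138).

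The receptors that pick out cargo moved in both directions. ATG19, the receptor that binds aminopeptidase I in the Cvt pathway, had signals of 130.1, 91.7 and 102 (0h), 234, 230.4 and 248 (4h), 67.5, 95.5 and 95.5 (8h) and 73.4, 59.2 and 71 (30h). It followed APE1 in direction: it rose by 1.15 ± 0.23 at 4h against 0h (adjusted p = 0.00347), fell by 1.48 ± 0.23 at 8h against 4h (adjusted p = 8.49e-05) and fell by 0.66 ± 0.23 at 30h against 0h (adjusted p = 0.0225). The last of these calls ended without 30h B (adjusted p = 0.0815). ATG20, a sorting nexin of the Cvt pathway, ranged over 66.2 to 112 (0h), 147 to 167 (4h), 32.4 to 83.3 (8h) and 40.4 to 72.4 (30h) and fell by 1.40 ± 0.35 at 8h against 4h (adjusted p = 0.00335), with no other call.

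ATG34, a paralog of ATG19 that serves as a receptor for alpha-mannosidase during starvation, had signals of 145, 62.6 and 72.3 (0h), 106, 104 and 114 (4h), 11.1, 9.25 and 29.5 (8h) and 70.5, 51.1 and 63.3 (30h). At 8h only 1 of 3 arrays was above background, and at 30h all 3 were. ATG34 fell by 2.90 ± 0.41 at 8h against 4h (adjusted p = 3.55e-05) and rose by 2.08 ± 0.41 at 30h against 8h (adjusted p = 0.0106), both set against an 8h level that lay partly under background. The second call ended without 8h A or 8h B (largest adjusted p = 0.0526) and with median centring. AMS1, the gene of that alpha-mannosidase, fell by 1.36 ± 0.21 at 8h against 4h (adjusted p = 8.19e-05) and was not called at 30h against 8h (0.22 ± 0.21, adjusted p = 0.64).

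Receptors for turnover of the endoplasmic reticulum rose late. ATG40 had signals of 221, 70.9 and 61.8 (0h), 53, 55.5 and 65.4 (4h), 549, 459 and 504 (8h) and 386, 544 and 247 (30h). Sample 0h A was above the other early samples, and every late sample exceeded it. ATG40 rose by 3.12 ± 0.41 at 8h against 4h, 8.71-fold (adjusted p = 1.75e-05), and by 1.91 ± 0.41 at 30h against 0h (adjusted p = 9.98e-04). ATG39, the receptor of the perinuclear membrane, ranged over 47.3 to 73.1 (0h), 45.7 to 54.4 (4h), 107 to 154 (8h) and 103 to 162 (30h), and rose by 1.32 ± 0.26 at 8h against 4h (adjusted p = 5.77e-04) and by 1.23 ± 0.26 at 30h against 0h (adjusted p = 9.46e-04).

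Next came the genes of mitochondrial and peroxisomal turnover. ATG32, the mitophagy receptor, ranged over 53.8 to 65.9 (0h), 90.2 to 93 (4h), 77.2 to 89.8 (8h) and 81.7 to 120.4 (30h) and rose by 0.71 ± 0.23 at 30h against 0h (adjusted p = 0.0142), a call that ended without 30h A (adjusted p = 0.0582). ATG33, a mitochondrial outer membrane protein that aids mitophagy, ranged over 20.5 to 46.2 (0h), 93.3 to 97.6 (4h), 21.2 to 46.6 (8h) and 31.2 to 66.4 (30h). It rose by 1.49 ± 0.39 at 4h against 0h (adjusted p = 0.0149) and fell by 1.71 ± 0.39 at 8h against 4h (adjusted p = 0.00163), and the first call ended without 4h A or 4h B (largest adjusted p = 0.0533). ATG36, the receptor for peroxisomes, ranged over 27.1 to 79.1 (0h), 63.8 to 69.4 (4h), 65 to 151 (8h) and 82.2 to 144 (30h) and rose by 1.43 ± 0.40 at 30h against 0h (adjusted p = 0.00614).

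ATG41 and ATG26 completed the set. ATG41 is needed for normal autophagosome formation and had signals of 16.5, 20.7 and 27.4 (0h), 64.6, 51.5 and 54.6 (4h), 99.2, 115 and 74 (8h) and 142, 114 and 103 (30h), with no overlap among 0h, 4h and 8h and some between 8h and 30h. It rose by 1.43 ± 0.27 at 4h against 0h (adjusted p = 0.00233), by 0.74 ± 0.27 at 8h against 4h (adjusted p = 0.0286) and by 2.49 ± 0.27 at 30h against 0h, 5.63-fold (adjusted p = 3.17e-06). The 8h against 4h call was lost on leaving out 4h B, 4h C, 8h A or 8h B (largest adjusted p = 0.104). ATG26, a sterol glucosyltransferase known to act in peroxisome turnover in Pichia pastoris, ranged over 36.8 to 59.6 (0h), 66.9 to 71.6 (4h), 134 to 140.2 (8h) and 72.4 to 87.6 (30h); it rose by 0.98 ± 0.23 at 8h against 4h (adjusted p = 0.00213) and by 0.72 ± 0.23 at 30h against 0h (adjusted p = 0.0149), and the second call ended without 0h B or 30h B (largest adjusted p = 0.0784).

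The genes around the pathway were read from 7 lists. Protease inhibitors and other vacuolar hydrolases fell at 8h against 4h: 2 of 3 inhibitors fell and the other was not called, and 1 of 10 hydrolases rose and 6 fell, beside the 30.7% and 33.9% of all genes. Their median log2 changes were -2.63 and -1.54. APE3, CPS1, DAP2, AMS1, PPN1, TFS1 and PBI2 were among the 1376 genes brightest at 4h, of which 66.2% fell at 8h against 4h. Of these, PPN1 and PBI2 were not called there. TFS1, the inhibitor of carboxypeptidase Y, rose by 1.998 ± 0.65 at 4h against 0h (adjusted p = 0.039), fell by 4.05 ± 0.65 at 8h against 4h (adjusted p = 9.53e-05) and fell by 2.04 ± 0.65 at 30h against 0h (adjusted p = 0.0131). PAI3, the inhibitor of proteinase A, fell by 2.63 ± 0.63 at 8h against 4h (adjusted p = 0.00234), and its change of 2.21 ± 0.63 at 30h against 8h was not called (adjusted p = 0.0759). Its 8h signals were 3.7, 12.7 and 12.5, with 8h A and 8h C under background. Both changes are set against an 8h level that lay partly under background. TFS1 was under background on 8h C, at 7.44. PBI2, the inhibitor of proteinase B, was called in no comparison, with -0.45 ± 0.44 at 8h against 4h (adjusted p = 0.38). The TFS1 call at 4h against 0h ended without 0h A, any 4h array, 30h A or 30h B (largest adjusted p = 0.118), and the one at 30h against 0h ended without 30h C (adjusted p = 0.0563).

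Among the hydrolases, at 8h against 4h the log2 change was -1.77 ± 0.26 for CPS1, a vacuolar carboxypeptidase (adjusted p = 5.13e-05), -2.53 ± 0.24 for DAP2, a dipeptidyl aminopeptidase (adjusted p = 1.05e-06), and -1.73 ± 0.21 for APE3, aminopeptidase Y (adjusted p = 8.85e-06). ATH1, the acid trehalase, fell by 2.80 ± 0.36 (adjusted p = 1.58e-05) and RNY1, a ribonuclease, fell by 2.70 ± 0.35 (adjusted p = 1.74e-05) in the same comparison. PHO8, the vacuolar alkaline phosphatase used as an autophagy reporter, was not called (log2 change -0.26 ± 0.36, adjusted p = 0.54). At 4h against 0h the list had 4 higher and 1 lower, with RNY1 1.53 ± 0.35 higher (adjusted p = 0.00781) and PFF1, a vacuolar membrane protease, lower (log2 change -1.11 ± 0.30, adjusted p = 0.0161; not called without 0h C, 4h A or 4h B). YSP3, a subtilisin-like protease, rose by 2.58 ± 0.22 at 30h against 0h (adjusted p = 3.27e-07), where ATH1 fell by 2.72 ± 0.36 (adjusted p = 1.97e-05).

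The vacuolar ATPase acidifies the vacuole so that the proteases can work. Of its 19 tested genes, 11 fell at 8h against 4h and 14 at 30h against 0h. These were 57.9% and 73.7%, beside 33.9% and 33.3% of all genes, and the medians were -0.95 and -1.35. By limma's adjusted test 0 of the 19 rose in either comparison, and 0 did at an unadjusted p under 0.05. Most of the 19, VMA1 to VMA7 included, were among the 1376 genes brightest at 4h. Of those 1376 genes, 66.2% fell at 8h against 4h. VMA1, the catalytic subunit, fell by 2.29 ± 0.26 at 8h against 4h (adjusted p = 5.64e-06) and fell by 1.09 ± 0.26 at 30h against 8h (adjusted p = 0.0347). VMA7 fell by 1.07 ± 0.21 at 30h against 8h (adjusted p = 0.00942), and these were the list's 2 calls there. VPH1, a membrane subunit, fell by 1.19 ± 0.23 at 8h against 4h (adjusted p = 4.47e-04), and the steepest falls were those of VMA4 (log2 change -3.89 ± 0.56, adjusted p = 4.01e-05) and VMA6 (-3.40 ± 0.30, adjusted p = 6.40e-07). VMA4 at 30h against 0h fell by 4.55 ± 0.56 (adjusted p = 9.66e-06) and VMA1 fell by 2.62 ± 0.26 (adjusted p = 1.54e-06). At 4h against 0h the list had 2 higher and 2 lower, led by VMA2 (1.60 ± 0.51, adjusted p = 0.0373) and PKR1, an assembly factor (-1.23 ± 0.25, adjusted p = 0.00368). The VMA1 call at 30h against 8h ended without any 4h or 30h array, 8h A or 8h B (largest adjusted p = 0.120), and the VMA2 call ended without any 4h array, 8h B or 30h A (largest adjusted p = 0.0949).

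Sorting and fusion genes were mixed, with medians at 8h against 4h of -0.71 and 0.44. Of 11 genes that sort proteases to the vacuole, 1 rose and 4 fell at 8h against 4h (9.09% and 36.4%, beside 30.7% and 33.9% of all genes), the lowest being VPS17, of the retromer coat (log2 change -2.12 ± 0.47, adjusted p = 0.0013), and VPS27, of the endosomal sorting machinery (-1.95 ± 0.35, adjusted p = 2.35e-04). At 4h against 0h the list's called genes were VPS1, higher by 1.47 ± 0.43 (adjusted p = 0.0234), and VPS29, higher by 0.89 ± 0.27 (adjusted p = 0.0321). At 30h against 0h 1 rose and 3 fell (9.09% and 27.3%, beside 31.2% and 33.3% of all genes), among them VPS27 (log2 change -1.81 ± 0.35, adjusted p = 4.26e-04) and VPS45 (-1.79 ± 0.35, adjusted p = 4.53e-04). Of 16 vacuole fusion genes, 3 rose and 6 fell at 8h against 4h (18.8% and 37.5%); SEC17 fell by 3.40 ± 0.39 (adjusted p = 4.80e-06), NYV1 fell by 3.25 ± 0.36 (adjusted p = 3.88e-06) and YPT7, the Rab of the vacuole, fell by 1.06 ± 0.30 (adjusted p = 0.00641), while VAM3, its SNARE, rose by 0.81 ± 0.23 (adjusted p = 0.00612). At 30h against 0h 5 rose and 6 fell (31.2% and 37.5%), with SEC17 at -3.18 ± 0.39 (adjusted p = 8.38e-06) and NYV1 at -2.66 ± 0.36 (adjusted p = 2.17e-05), and at 4h against 0h MON1 alone was called, higher by 0.96 ± 0.25 (adjusted p = 0.0152). The 4h against 0h calls of VPS1 and VPS29 ended without any 4h array (largest adjusted p = 0.110) and that of MON1 without 4h A or 4h B (largest adjusted p = 0.0668).

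Kinases and TOR-pathway regulators of autophagy had 5 higher and 9 lower of 24 at 8h against 4h (20.8% and 37.5%, beside 30.7% and 33.9% of all genes), and 7 higher and 8 lower at 30h against 0h (29.2% and 33.3%, beside 31.2% and 33.3%), with medians of -0.48 and -0.14. TOR2 fell by 1.05 ± 0.30 at 8h against 4h (adjusted p = 0.00672) and fell by 1.34 ± 0.30 at 30h against 0h (adjusted p = 0.00127), while its paralog TOR1 was called in no comparison (0.70 ± 0.36 at 30h against 0h, adjusted p = 0.0972). KOG1, the TOR complex 1 subunit, rose by 2.20 ± 0.36 at 8h against 4h (adjusted p = 1.31e-04) and by 2.26 ± 0.36 at 30h against 0h (adjusted p = 1.01e-04). UME6, a repressor of ATG8 transcription, rose by 2.51 ± 0.59 at 8h against 4h (adjusted p = 0.002). BCY1, the inhibitory subunit of protein kinase A, rose by 1.71 ± 0.36 at 4h against 0h (adjusted p = 0.00458) and fell by 3.61 ± 0.36 at 8h against 4h (adjusted p = 1.77e-06); TPK2, a catalytic subunit, rose by 1.52 ± 0.42 at 4h against 0h (adjusted p = 0.0183). PHO85 fell by 3.34 ± 0.59 at 8h against 4h (adjusted p = 2.31e-04), SNF4, the activating subunit of the Snf1 kinase, fell by 2.32 ± 0.24 at 30h against 0h (adjusted p = 1.79e-06), and NPR1, a kinase under TOR control, was called in no comparison (-0.46 ± 0.26 at 8h against 4h, adjusted p = 0.134). SNF1, the catalytic subunit of that kinase, named after its values were seen, rose by 1.19 ± 0.23 at 4h against 0h (adjusted p = 0.00286), by 0.56 ± 0.23 at 8h against 4h (adjusted p = 0.048) and by 1.82 ± 0.23 at 30h against 0h (adjusted p = 1.39e-05), the second of which was lost in 14 of 25 alternative settings, 8 of them the loss of 1 array (largest adjusted p = 0.125). Without array 0h A the 4h against 0h changes of TPK2, VMA2, VPS1 and VPS29 were 0.91, 0.71, 0.78 and 0.53. The TPK2 call ended without any 4h array (largest adjusted p = 0.0620).

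**Figure D5:**
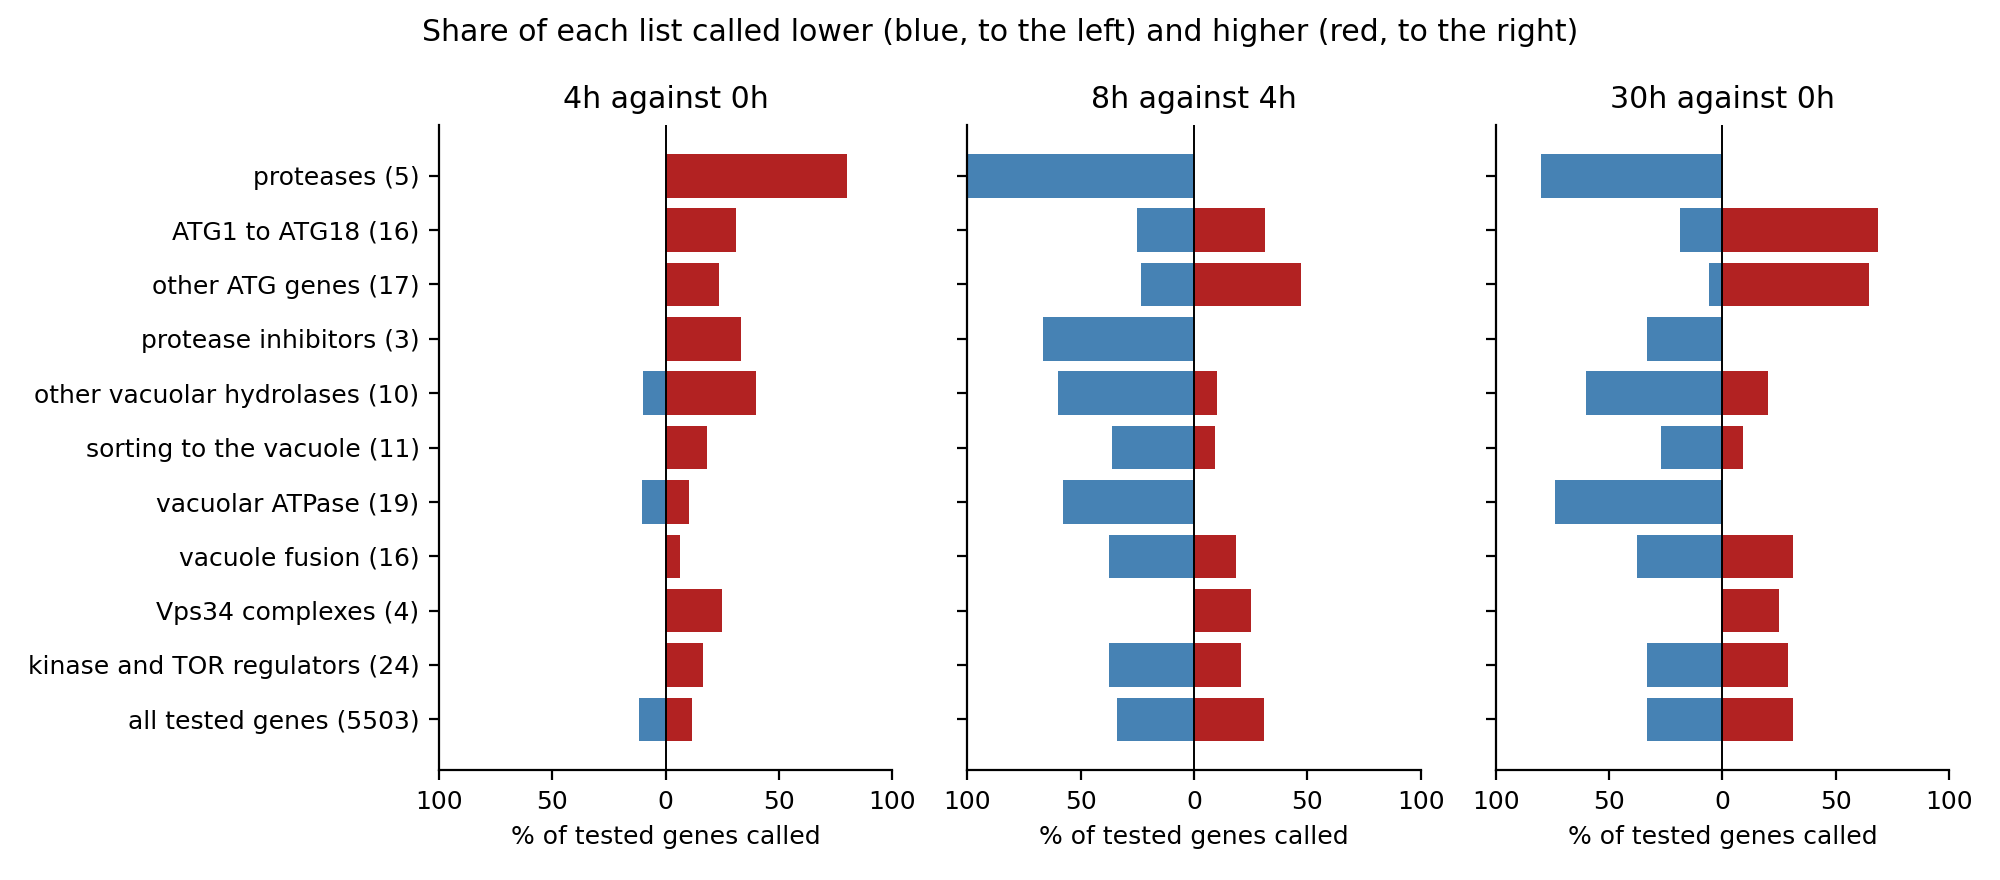
Percent of the tested genes of each list (number in brackets) called higher (right) and lower (left) for 4h over 0h, 8h over 4h and 30h over 0h, with all 5503 tested genes at the foot. At 30h against 0h, 68.8% of ATG1 to ATG18 were called higher and 80% of the proteases lower on normalised signals.

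Array 0h A bore on the ATG genes unevenly. Relative to the mean of 0h B and 0h C, its log2 signal was more than 1 higher for 8 of the 38 genes (ATG7, ATG10, ATG14, ATG16, ATG21, ATG34, ATG36 and ATG40) and more than 1 lower for 5 (ATG1, ATG12, ATG33, PRB1 and LAP3), from 2.40 for ATG14 to -1.57 for PRB1. These 13 were 34.2% of the genes, and 35.1% of all tested genes lay as far apart. Samples 0h B and 0h C differed by more than 1 for 0 of the 38 and for 160 of all 5503 tested genes. Without 0h A, 22 genes were higher and 9 lower at 30h against 0h, and without 0h A and 0h C 19 were higher and 8 lower, beside 22 and 8 with all arrays.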

How the data were processed

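RNA of 12 samples, 3 at each of 4 times, was measured on single-colour Affymetrix arrays. The deposited values are linear intensity signals for 10928 probe sets, made with GCOS 5.0 and MAS5 per the submitters' processing notes, whose parameters and any scaling target are not given in the sources used here. The deposited intensities do not share a scale across arrays. Platform annotation gave 5685 probe sets of 1 S. cerevisiae gene and 4916 of 1 S. pombe gene; where a gene had several probe sets, those without a shared-target ending and then the brighter one were kept. Genes with a mean log2 signal above the 95th percentile of S. pombe means (a signal of 7.74) were tested, 5503 of 5635. Signals were log2 transformed with no pseudocount and quantile normalised over tested genes. All 4 times were fitted in 1 limma model (limma 3.58.1, R 4.3.3) with 8 residual degrees of freedom and a trended prior, with 4 comparisons and an F test. The number of arrays limits precision.

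The sample letters did not pair the arrays: over 18 same-letter pairs of different times, correlations of deviations from the time means ran from -0.210 to 0.237. The genes, lists, tests and alternatives were chosen with earlier results of these data known. The 7 surrounding lists held 3 to 24 genes; genes named from them were the largest 2 called changes in each comparison plus a preset 20. Alternatives were no normalisation, median centring with and without scaling, pseudocounts of 16 and 100, no filter, a 99th percentile filter, the mean of all probe sets, a replicate block, no trend, array weights, the compared times alone and leaving out each array; leaving out 0h A and 0h C together was added after seeing the data. The code was tested on simulated data. No sequences are printed, since no genome or sequence table was used here.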

Additional observations from a re-analysis of the deposited data

How the results depend on the processing

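Of 3800 values of the 38 genes under 25 alternatives, 3549 kept their direction and their side of the threshold, 121 lost a call, 112 gained one and 18 changed sign with a call; 4200 values of the named surrounding genes divided into 3933, 138, 112 and 17. Of the 26 calls at 8h against 4h, 16 held under each alternative and 22 held under each but no normalisation; the figures were 8 and 21 of 30 at 30h against 0h, 0 and 5 of 13 at 4h against 0h, and 0 and 1 of 3 at 30h against 8h. Without normalisation the median of all genes shifted by -1.17, -1.28, 0.58 and -1.86 in the 4 comparisons (4h against 0h, 8h against 4h, 30h against 8h, 30h against 0h). The counts were then 0 higher and 6 lower at 4h against 0h, 3 higher and 17 lower at 8h against 4h, 0 in either direction at 30h against 8h, and 3 higher and 15 lower at 30h against 0h. Median centring gave 21 higher and 1 lower at 4h against 0h and 1 higher at 30h against 8h, array weights (whose fit stopped before its tolerance) 28 higher and 1 lower at 4h against 0h, and a pseudocount of 100 gave 1 lower at 30h against 8h, as did leaving out 0h A and 0h C. Leaving out 1 array gave 7 to 19 higher and 0 to 1 lower at 4h against 0h, and 1 to 6 higher and 0 to 1 lower at 30h against 8h. The cause of these moves was not tested.

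Sign changes with a call came without normalisation, apart from PBI2 at 30h against 0h (-1.45) and SNF1 at 8h against 4h (-0.25) with median centring. At 8h against 4h they were ATG4 (-0.28), ATG7 (-0.73), ATG21 (-0.22), ATG22 (-0.11), ATG26 (-0.21), ATG27 (-1.34), ATG41 (-0.28), SNF1 (-1.39) and VAM3 (-0.27). At 30h against 0h they were ATG4 (-0.25), ATG9 (-0.13), ATG15 (-0.24), ATG21 (-1.19), ATG23 (-0.12), ATG26 (-0.86), ATG27 (-1.39), ATG32 (-0.96), ATG36 (-0.13), ATG39 (-0.53), ATG40 (-0.43), KOG1 (-0.49), MON1 (-0.67), NPR1 (-2.09), PBI2 (-3.22), SNF1 (-0.50), UME6 (-0.19), VAM3 (-1.75), VPS29 (-1.33) and VPS34 (-1.29). At 4h against 0h they were AMS1 (-0.0049), MON1 (-0.034), VPS29 (-0.14) and YSP3 (-0.44). The replicate block left 13 higher at 4h against 0h, 13 and 13 at 8h against 4h, 2 higher at 30h against 8h, and 22 and 8 at 30h against 0h; the letters share only a name, and in 7 of 18 same-letter pairs an array correlated best with its own letter among the arrays of the other time. Genes near array background (ATG14, ATG16 and ATG38 at 0h, ATG17 at 0h and 8h, ATG18 late, ATG34 at 8h) are measured least precisely. Surrounding genes were not counted against background over all arrays. On 8h C, PAI3, TFS1, PHO85, ATH1, RNY1, NYV1 and VMA6 lay below ATG17, at 16.7, which was under background there. Their falls at 8h against 4h are set against levels partly under background.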

Other observations

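Some genes of each group were called higher at 4h against 0h and lower at 8h against 4h. The same 4h arrays enter both comparisons with opposite sign, which by itself favours this order of calls. How many of all tested genes had it was not counted. Of the 4 proteases called higher at 4h against 0h, 4 were called lower at 8h against 4h; of the 5 such genes of ATG1 to ATG18, ATG3 and ATG15 were called lower and ATG7 higher; of the 4 other ATG genes, ATG19 and ATG33 were called lower and ATG29 and ATG41 higher. No test of a difference between the groups was run.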
